A study of Drosophila melanogaster with 2 samples.

Results

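Of 4706 Araucan peaks on the assembled chromosome arms of Drosophila melanogaster, 797 had their summit in intergenic sequence, which is 16.9% (95% interval 15.9 to 18.0). They came from ChIP-seq, in which sheared chromatin is precipitated with an antibody and the DNA recovered is mapped to the genome. The material was whole embryos of 0 to 24 h from 1 strain with an insertion that fuses Araucan to enhanced green fluorescent protein (ara-eGFP). The immunoprecipitation used an antibody against the fluorescent protein, although a separate label names the antibody target as ara. There was 1 group with 2 biological replicates, and nothing in the labels says what drives the fusion gene. A whole-embryo collection of this age range mixes every embryonic stage and cell type, so that a peak cannot be placed in a tissue or a stage. Control libraries were not used here. A peak was taken as intergenic when its summit, the position of highest signal, lay inside no annotated gene of any biotype and over 500 bp from every annotated transcription start site (TSS). The rule used position alone, not signal. The deposited conservative list held 4716 peaks in all, of which 10 lay off the arms. No intergenic summit fell inside a RefSeq gene either, and 3 fell in an annotated transposable element.

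Araucan is a homeodomain transcription factor of the TALE class. Its gene ara lies beside those of the related factors Caupolican (caup) and Mirror (mirr) in the Iroquois complex, which is known for roles in patterning sensory organs, wing veins and the eye, and in muscle and nerve cells. Iroquois proteins are known to recognise the palindrome ACANNTGT. Distal DNA elements that act on a gene from intergenic sequence are called enhancers, and many developmental genes of the fly have several of them spread over long stretches without genes. Transcription of fly genes often starts at an initiator, an oriented sequence whose core is TCAGT.

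The sequences below, all from the dm6 genome as held in RefSeq and written 5' to 3' on the plus strand, show the 2 features that the results turn on. The first 3 windows reach nearly 150 bp to each side of the summit and come from 3 strong peaks that carry the initiator-like word TCAGTG on both sides. Capitals mark the word as CACTGA (its reverse complement) 50 to 150 bp before the summit and as TCAGTG 50 to 150 bp after it. In each of them the 2 words point away from the summit.
slp1 to slp2, chr2L:3832371-3832669, signal 563.1: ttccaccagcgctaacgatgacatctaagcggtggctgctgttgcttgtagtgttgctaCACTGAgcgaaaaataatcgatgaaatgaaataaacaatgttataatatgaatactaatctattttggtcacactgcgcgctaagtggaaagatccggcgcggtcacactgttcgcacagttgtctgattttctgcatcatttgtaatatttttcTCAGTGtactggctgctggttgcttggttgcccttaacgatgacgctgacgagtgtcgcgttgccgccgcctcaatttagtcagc
Cyp6t1 to GCS2alpha, chrX:21593925-21594223, signal 284.5: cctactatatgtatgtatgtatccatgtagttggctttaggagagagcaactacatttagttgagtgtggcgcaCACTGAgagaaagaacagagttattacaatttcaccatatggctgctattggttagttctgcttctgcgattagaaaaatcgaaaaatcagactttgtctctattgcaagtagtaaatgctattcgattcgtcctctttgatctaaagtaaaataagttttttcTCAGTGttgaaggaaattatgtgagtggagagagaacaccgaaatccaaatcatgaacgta
noc to CG33648, chr2L:14502619-14502917, signal 241.2: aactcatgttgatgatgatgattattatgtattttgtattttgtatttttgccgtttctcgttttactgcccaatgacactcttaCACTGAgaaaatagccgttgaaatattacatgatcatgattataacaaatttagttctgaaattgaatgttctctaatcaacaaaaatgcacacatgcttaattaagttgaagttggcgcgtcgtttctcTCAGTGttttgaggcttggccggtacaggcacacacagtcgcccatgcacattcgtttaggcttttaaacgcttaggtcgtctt

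The next 5 windows reach 50 bp to each side of the summit, at 2 of the strongest intergenic peaks and at 3 intergenic peaks of the Iroquois complex. Capitals mark any ACANNTGT or TAACA, on either strand, which were searched as Iroquois sites. Among these 5, the palindrome stands only in the peak between caup and mirr of signal 85.7, and there it runs into a TAACA on the other strand.
COX7AL2 to CG31668, chr2L:2202361-2202461, signal 1060: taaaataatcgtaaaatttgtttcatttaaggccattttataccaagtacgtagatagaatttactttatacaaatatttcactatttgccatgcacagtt
RasGAP1 to CG10809, chr3L:9855948-9856048, signal 793.0: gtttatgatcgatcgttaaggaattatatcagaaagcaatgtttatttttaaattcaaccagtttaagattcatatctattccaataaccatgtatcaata
ara to caup, chr3L:12606430-12606530, signal 162.2: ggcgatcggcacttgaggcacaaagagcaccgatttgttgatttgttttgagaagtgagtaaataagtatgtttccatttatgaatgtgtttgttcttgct
caup to mirr, chr3L:12684868-12684968, signal 139.1: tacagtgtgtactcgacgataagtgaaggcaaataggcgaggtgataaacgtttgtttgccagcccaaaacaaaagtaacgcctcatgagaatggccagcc
caup to mirr, chr3L:12675699-12675799, signal 85.7: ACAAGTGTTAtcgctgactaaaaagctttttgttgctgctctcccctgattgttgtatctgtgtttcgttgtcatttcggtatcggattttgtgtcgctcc

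Intergenic peaks were about as strong as intronic ones and were listed in both replicates about as often. Their signal, the authors' own value per peak, had a median of 94.4 (quartiles 71.9 and 147.2, range 3.57 to 1228), against 97.7 for 1775 intronic, 102.4 for 1878 promoter and 69.7 for 256 exonic peaks. Promoter peaks are those within 500 bp of a TSS, and intronic and exonic ones lie farther out inside genes. At the top of the list intergenic peaks were fewer. They made up 2 of the 25 strongest peaks (8%, interval 0.984 to 26.0, which covers their share of all peaks). They were 9 of the strongest 100 (9%, 4.20 to 16.4) and 143 of the strongest 1000 (14.3%, 12.2 to 16.6). The 90th percentile of signal was 225.9 for intergenic, 247.3 for intronic and 328.0 for promoter peaks. With all peaks ranked by signal and split into 4 equal groups, the intergenic share was 16.8% in the weakest group, then 17.9% and 17.6%, and 15.5% in the strongest.

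The second replicate column of the ranked list gave the higher signal at most intergenic peaks. Its median was 55.8 against 40.8 in the first column, with a median ratio of 1.33 (quartiles 1.03 and 1.71), and it was higher at 617 of 797 peaks (77.4%). The same ratio was 1.33 for intronic and 1.31 for promoter peaks. The 2 columns equal peaks of replicate 1's and replicate 2's own deposited lists at 794 and 795 of the 797 summits. Across the 797 peaks, which share the same 2 libraries, the log10 signals had a Pearson r of 0.81 and the ranks a Spearman rho of 0.66, against 0.87 and 0.73 over all peaks. The libraries' depth is unknown, because the files give no read counts, and its part in the ratio was not tested.

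**Figure D1:**
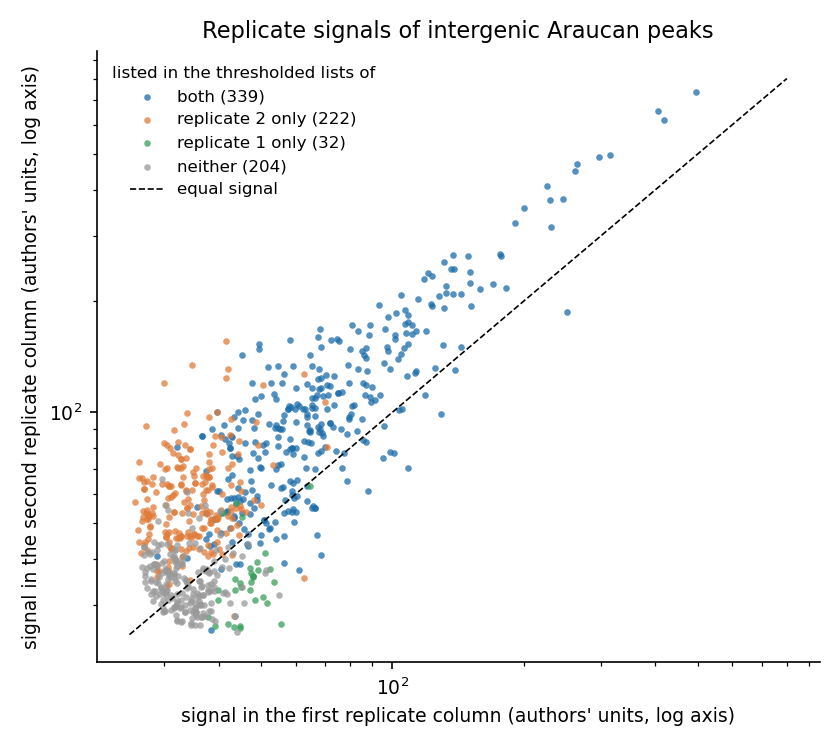
Signal of each of the 797 intergenic peaks in the second replicate column against the first, on log axes, coloured by whether the peak overlaps each replicate's own thresholded list. Most points lie above the dashed line of equal signal, and the 339 peaks listed in both replicates fill the upper right.

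Listing in both replicates followed signal closely. An intergenic peak overlapped a peak of both replicates' own thresholded lists in 339 cases, 42.5% (interval 39.1 to 46.1), against a background of 44.9% over all conservative peaks. The shares were 44.5% for intronic, 50% for promoter and 17.6% for exonic peaks. A further 222 intergenic peaks were listed in replicate 2 alone, 32 in replicate 1 alone and 204 in neither. In the weakest of the 4 signal groups 3.54% of intergenic peaks were in both lists, then 13.3% and 62.3%, and in the strongest 96.2%. Intronic peaks ran alongside, from 5.77% to 97.6%.

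A small set of the weakest intergenic peaks lay on the shoulders of stronger ones. For 772 of the 797 the pooled signal was 0.251 to 1.68 times the sum of the 2 replicate signals, with a median of 0.997, and for 752 of them it was within 0.8 to 1.2 times that sum. The other 25, set apart by a pooled signal under 20, had 3.57 to 17.6 and at most 0.236 times the sum, although their replicate signals ran from 27.0 to 75.1 and from 28.1 to 112.5. Each of these 25 overlapped a stronger conservative peak and carried the same replicate peak as it did. In all, 56 intergenic peaks (7.03%) shared a replicate peak with another conservative peak. With only the strongest of each such group kept, 769 intergenic peaks remained.

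The strongest intergenic peaks lay beside genes of very different roles. The highest, 1228 at 2R 13035219 to 13035456, with 496.4 and 733.7 in the 2 replicate columns, lay in the 36.8 kb between Su(z)2, a Polycomb group gene, and CG13323. Its summit was 27432 bp from the nearer edge of the first and 9352 bp from that of the second. A further strong peak (751.4, 265.0 and 468.5) lay between CG13321 and Psc, the Polycomb group relative of Su(z)2, 7800 bp from the 3' end of Psc. The second highest, 1060 at 2L 2202284 to 2202535 (406.3 and 654.5), was between COX7AL2 and CG31668. The third, 1034 at 3R 16222380 to 16222614 (418.9 and 618.6), lay 3155 bp from the start of tara, which encodes a regulator of the cell cycle and of chromatin, with mtSSB on the other side. Next came a peak of 813.1 (314.3 and 497.9) in the 1340 bp between blw, which encodes an ATP synthase subunit, and the mitotic cyclin gene CycB, where the genes converge. The fifth, 793.0 (296.9 and 490.7), was 713 bp from the start of RasGAP1.

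Among the other strong peaks, several lay beside developmental regulators. A peak of 563.1 (200.2 and 357.2) lay between the paralogous pair-rule genes slp1 and slp2, which encode forkhead factors, 4320 bp from the start of slp2. A peak of 532.1 (230.1 and 374.1) lay between Ids and sty, the gene of the receptor tyrosine kinase inhibitor Sprouty. A peak of 438.1 lay between the homeobox gene C15 and sp3, and it was the only 1 of the 25 strongest with the higher signal in the first replicate column (250.6 against 186.7). The remaining gaps of the 25 strongest were CG43131 to RabGGTa (704.3), Sol1 to Cyp9f2 (620.6), CG3149 to AdamTS-B (542.4), CG44362 to CG7560 (512.1), CG16898 to CG46443 (451.8), CheA75a to CG5103 (448.4), CG5953 to CG31816 (426.5), CG13334 to CG42807 (409.2), CG17896 to CG17778 (391.8), CG43245 to CG12523 (390.3), NijA to CG43245 (378.8), CG7320 to CheA75a (375.4) and CG43401 to CG43402 (373.9). The gap CG13896 to hng3 held 2 of them (619.3 and 395.1), 1281 bp apart, and the next gap along, hng3 to CG13898, held 1 (380.1). All 25 were listed in both replicates, and 10 of them were on 3L. Their distance to the nearest TSS ran from 509 to 12839 bp, with a median of 3755 bp, and 7 lay under 1000 bp from one. The nearer edge of a coding gene was its 3' end for 13 and its 5' end for 12.

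Intergenic summits became sparser with distance from a TSS, while their median signal stayed between 89.7 and 101.6. The sequence that could hold such a summit, called eligible here, is every base of the arms outside genes and over 500 bp from a TSS. It spans 36.5 Mb and held 21.9 summits per Mb, against 33.6 in introns, 103.5 in promoters and 9.68 in exons, each over its own sequence. The density was 41.8 per Mb at 500 to 1000 bp from a TSS, 32.4 at 1 to 2 kb, 29.3 at 2 to 5 kb, 22.2 at 5 to 10 kb, 17.01 at 10 to 20 kb and 3.02 beyond 20 kb. Both replicates' own lists fell in the same order. The median signal over the same distances was 101.6, 94.4, 89.7, 101.2, 100.3 and 96.5. The median distance was 3320 bp, and the nearest TSS belonged to a protein-coding gene for 503 peaks (63.1%, interval 59.7 to 66.5), to a noncoding RNA gene for 269 and to a tRNA gene for 21. The farthest summits were at 43219 bp on 2L, in the 121.1 kb between CG10651 and CG17571 (158.5), at 36777 bp on 2R between Pld and jing (120.9) and at 36636 bp on 3L between NijA and CG43245 (91.6). The first 2 of these were listed in both replicates and the third in replicate 2 alone.

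**Figure D2:**
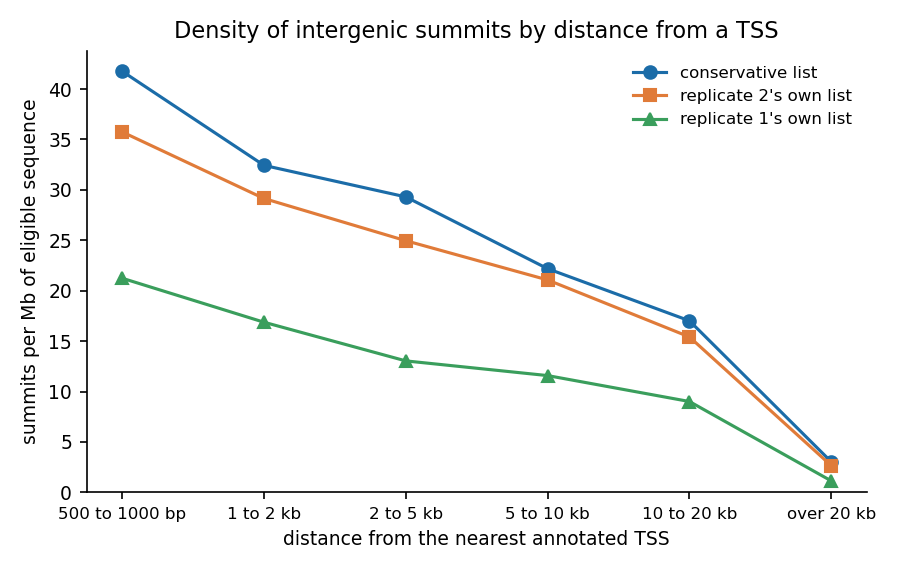
Intergenic summits per Mb of eligible sequence (vertical axis) by distance from the nearest annotated TSS, for the conservative list and for each replicate's own thresholded list. All lines fall with distance, from 41.8 per Mb at 500 to 1000 bp to 3.02 beyond 20 kb in the conservative list.

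The arms differed in density. The conservative list had 29.5 intergenic summits per Mb on 2L, 25.3 on 3L, 22.4 on 3R, 17.2 on 2R and 12.8 on X, and 1 summit in the 0.245 Mb of chromosome 4. X was the lowest of the 5 large arms in both replicates' lists too, at 6.21 per Mb in replicate 1 and 12.05 in replicate 2. Among these arms X was also the lowest for exonic summits (5.54 per Mb, against 10.2 to 11.5) and for promoter summits (98.7 against 101.3 to 112.1). For intronic summits it was the highest, with 37.7 per Mb against 28.8 to 37.6.

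Many intergenic summits lay together in the same gap. A gap is the stretch between neighbouring protein-coding genes, and 460 of 5520 gaps with eligible sequence held a summit. Of the 797 summits, 489 were in the 152 gaps with 2 or more, and 248 were in the 45 gaps with 4 or more. The density did not follow gap length steadily. It was 37.5 per Mb in gaps of up to 5 kb, 28.5 at 5 to 10 kb, 22.0 at 10 to 20 kb, 31.7 at 20 to 50 kb, where 337 summits lay, and 8.74 over 50 kb. Gaps whose genes diverge, so that both face the gap with their 5' ends, had 28.6 per Mb. Those with tandem genes had 21.6 and those with convergent genes 20.3, and the order was the same in both replicates' lists. Within gap lengths, this order held only up to 5 kb (40.5, 40.2 and 28.0). At 5 to 10 and 10 to 20 kb divergent gaps were highest (45.2 and 32.4), but convergent gaps exceeded tandem ones. At 20 to 50 kb divergent and tandem gaps were alike (33.0 and 33.2), and over 50 kb convergent gaps were highest (11.2). The nearer coding edge was a 5' end for 415 summits and a 3' end for 382, at 24.3 and 21.8 per Mb.

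The fullest gaps held up to 11 summits. The 21.1 kb between Ids and sty held 11, with signals of 4.21 to 532.1, of which 7 were listed in both replicates and 1 was a shoulder. The 47.9 kb between hng3 and CG13898 also held 11 (63.0 to 380.1), 8 of them in both lists. CG7320 to CheA75a had 10 in 48.5 kb (12.8 to 375.4), 4 of them in both lists. RFeSP to chinmo had 9 in 37.1 kb (60.9 to 267.2), and chinmo encodes a zinc finger factor of temporal neural identity. CG44362 to CG7560 had 8 in 27.3 kb (54.2 to 512.1). A further pair of gaps also held 8 each. Ids to sty was the densest of these 5, with 54.9 summits per 100 kb of eligible sequence.

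The Iroquois complex held 8 intergenic summits in the 4 gaps that ara, caup and mirr border, none of them among the 100 strongest. All 3 genes lie on 3L on the plus strand. The highest, 162.2 at 12606318 to 12606641 between ara and caup (58.6 and 103.0), lay 3151 bp before the start of caup. It was higher than 76.4% of all conservative peaks. The 71.8 kb between caup and mirr held 4, with summits at 12668282 (137.8), 12675749 (85.7), 12678201 (66.7) and 12684918 (139.1), the last 8721 bp before the start of mirr. The first and last of these 4 were listed in both replicates, and the middle 2 in neither. The peak 2938 bp before ara (69.2) was in replicate 2's list alone. Past mirr, towards SmD1, lay a peak of 69.8 and its shoulder of 4.74, both in neither list. The intergenic density over these gaps was 92.5 per Mb, against 23.0 over all gaps between coding genes. Replicate 1's own list held 4 intergenic summits in these gaps and replicate 2's held 5.

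In most of the lists of developmental genes, the share that bordered a gap with an intergenic summit was above that of all genes, and their gaps also hold far more sequence. Of all 13945 protein-coding genes, 834 border such a gap, a background of 5.98%. The counts for the lists stand against that share, and the intervals cover counting error only. Homeobox factors outside the Hox and Iroquois groups had 19 of 63 (30.2%, 19.2 to 43.0) and gap and pair-rule genes 9 of 19 (47.4%, 24.4 to 71.1). The counts were 5 of 10 for eye determination genes, 6 of 10 for wing vein genes, 7 of 18 for neuroblast and nervous system factors, and 5 of 14 for mesoderm and heart genes. By the replicates' own lists, 10 and 20 homeobox factors bordered such a gap, beside 494 and 766 of all genes. The median eligible sequence around a gene was 13.2 kb for the homeobox factors, 20.9 kb for gap and pair-rule genes and 37.6 kb for wing vein genes, against 0.063 kb for all genes. Per Mb of that sequence the homeobox factors had 44.1 summits, gap and pair-rule genes 61.1, eye genes 62.7, wing vein genes 44.6, neuroblast factors 37.4 and mesoderm and heart genes 49.99, against 23.0 for all genes. A summit in a gap counts for the genes on both of its sides, and a gene can be in several lists.

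Each list was led by a few genes. Among homeobox factors, the gap between C15 and sp3 was followed by that of vvl, a POU factor of tracheal and wing vein development and also a member of both those lists (344.7, 33848 bp from its start, 7 summits), and by that of oc, the head gap gene also known as orthodenticle (268.2, 5 summits). The pair-rule and gap list was led by slp1 and slp2 and then by drm (306.2, 8 summits). The eye genes with the highest summits were Optix (157.0), hth (119.5, with 9 summits), which encodes a TALE cofactor of Hox proteins, and dac (112.4, 530 bp from its start). In the wing vein list, after vvl, came salm and salr, zinc finger genes that share a summit of 178.0. Mesoderm and heart genes were led by the T-box genes mid (296.1, 9 summits), Doc1 (246.7) and H15 (138.7), and the neuroblast list by Dr (160.3), pros (153.8) and SoxN (152.8). Of 8 Hox genes, abd-A (217.8) and the neighbours Dfd and Scr (a shared 101.8) bordered a summit. The Hox gaps held these 2 summits alone, at 16.7 per Mb of eligible sequence, below the 23.0 for all genes. Tracheal genes had 4 of 10, with kni (105.3) and dysf (97.6) after vvl. Muscle identity genes had 3 of 14 (21.4%, 4.66 to 50.8, which covers 5.98%), with tup (221.7), slou (82.6) and org-1 (70.2). In replicate 1's own list alone, the counts were 1 for tracheal and 1 for Hox genes. By the nearest coding TSS, in place of the gap, they were 1 for Hox, 1 for muscle identity, 3 for neuroblast and 11 for homeobox genes.

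The signalling lists also stood above 5.98%, each with few genes. The Dpp and dorsal ectoderm list had 6 of 21, led by Doc1 and Doc2 (246.7) and the homeobox gene tup (221.7), at 107.6 summits per Mb. The EGFR list had 4 of 16 (84.9 per Mb), led by sty (532.1), by aop (331.6), which encodes the repressor Yan, and by the ligand gene vn (100.8). The gap between Ids and sty held 11 of its 16 summits. The Hedgehog list had 4 of 13, led by the receptor gene ptc (320.6), dally (138.2), which encodes a heparan sulfate proteoglycan, and en (85.2). The Notch list had 5 of 16, with E(spl)mbeta-HLH (189.0), E(spl)m3-HLH (131.7) and the ligand gene Ser (122.5). The Wnt list had 4 of 18, and its ligand genes wg and Wnt4 share their highest summit (145.3), ahead of that beside the receptor gene fz (131.7). Proneural and sensory organ genes had 3 of 14, with hry (110.5), phyl (90.5) and dimm (60.0). Their share of 21.4% has an interval of 4.66 to 50.8, which covers 5.98%. In replicate 1's own list alone the Notch count was 3, and in replicate 2's alone the proneural count was 1.

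The chemoreceptor and cuticle protein lists stood near the background of 5.98%. Chemoreceptor genes had 11 of 179 (6.15%) at 12.8 summits per Mb, against 23.0 for all genes, led by Gr93a (194.2), Or56a (155.3) and Or85b (137.4). Cuticle protein genes had 7 of 116 (6.03%) at 21.2 per Mb, with Cpr76Ba (144.8) and the neighbours Cpr65Ec and Cpr65Eb (111.4). Cytosolic ribosomal protein genes had 4 of 92 (4.35%) at 6.84 per Mb, with RpLP0 (105.1), RpL22-like (74.2) and RpS23 (74.1). Neuron markers had 1 of 15, futsch (94.2), and hemocyte and fat body genes 1 of 13, srp (94.4). No germline gene of 11 did, which allows a share of up to 28.5% at this list size, and their gaps hold only 0.00245 Mb of eligible sequence. The Dpr and DIP surface protein genes have long gaps, with a median of 11.3 kb of eligible sequence, and 4 of 32 (12.5%, 3.51 to 28.99) bordered a summit, at 6.02 summits per Mb. Their highest were dpr17 (195.2), DIP-delta (132.1) and dpr20 (112.8). In replicate 1's own list alone, 6 chemoreceptor, 2 cuticle protein, 0 ribosomal protein and 0 neuron genes bordered a summit, and in replicate 2's alone 4 cuticle protein genes did.

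**Figure D3:**
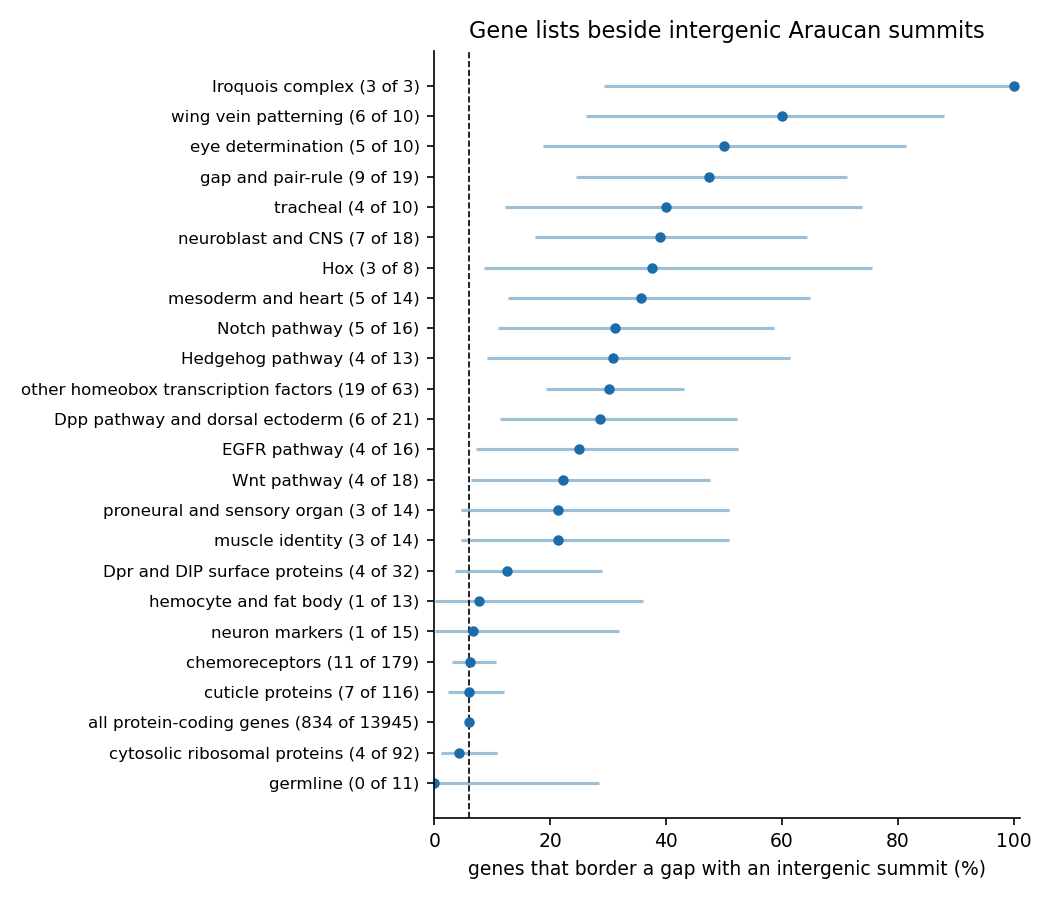
Share of the genes in each list that border a gap with an intergenic summit, with exact 95% intervals and the counts beside the names. The dashed line is the 5.98% of all protein-coding genes, near which the chemoreceptor and cuticle protein lists lie, while the developmental lists lie to its right.

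The DNA at intergenic summits was poor in G and C. In windows that reach 50 bp to each side of a position, the GC share averaged 35.8% ± 9.95 (SD, n = 797 windows) at the summits, against 41.4% ± 9.73 (SD, n = 1594 windows) in windows 500 bp to each side and 40.9% over 353108 windows that tile the eligible sequence. Intronic summits were alike, at 35.5% ± 9.63 (SD, n = 1775 windows). The dip deepened with signal. From the weakest to the strongest of the 4 signal groups the mean at intergenic summits was 41.9%, 36.3%, 33.2% and 31.8%. In narrower windows, of 51 bp, the strongest group had 31.2% at the summit, 45.8% and 46.9% at 150 bp before and after it, and 42.4% and 42.3% at 500 bp. The weakest group had 42.0% at the summit, 43.1% and 44.7% at 150 bp, and 40.6% and 39.2% at 500 bp. ChIP-seq reads can depend on base composition, and its part in the signal was not tested.

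**Figure D4:**
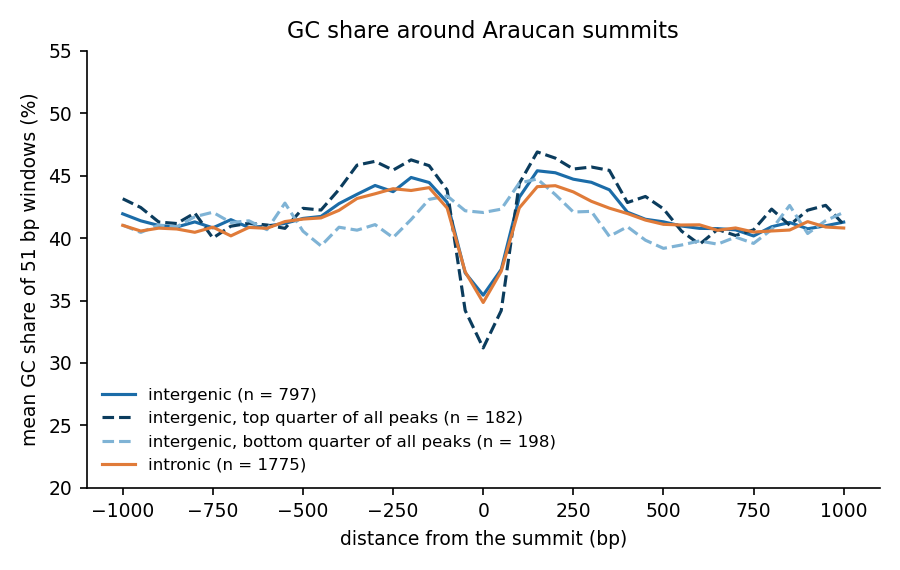
Mean GC share of 51 bp windows (vertical axis, from 20%) by distance from the summit for all intergenic peaks, for those in the strongest and the weakest of the 4 signal groups and for intronic peaks. At the summit the intergenic and intronic lines dip to 35.4% and 34.8% and the strongest group to 31.2%, while the weakest is at 42.0%.

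The Iroquois palindrome was not detectably more frequent at intergenic summits than beside them, with overlapping intervals. ACANNTGT, on both strands, was in 36 of 797 summit windows, 4.52% (interval 3.18 to 6.20), against 3.58% of flanking windows (2.72 to 4.61) and 3.45% of all eligible windows. In the stronger intergenic peaks, those at or above the median signal of all peaks, it was in 3.60%. The pentamer TAACA, also searched as an Iroquois site, was in 25.7% of summit windows (22.7 to 28.9) against 19.4% of flanks. The control pentamer TACAA was in 27.9% against 21.1%. Both pentamers are rich in A and T, as the summits are, and the part of base composition in their shares was not tested. Among windows with a GC share of 30 to 40%, TAACA was in 26.6% of summit windows (21.6 to 32.0) and in 23.9% of eligible windows, and TACAA in 31.0% (25.8 to 36.7) and 28.0%. In the other GC groups, too, the share of eligible windows lay inside the interval at summits for both pentamers. The Mirror site ACACGTGT, a form of the palindrome, was in none of the 797 windows, which allows a share of up to 0.462%, and in 0.251% of flanks.

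The long sites of promoter factors were rare at intergenic summits, as in eligible sequence at large. The DREF site TATCGATA was in 1 of 797 windows (0.125%, up to 0.697%), against 0.214% of eligible windows, and in 2.13% of promoter summit windows. The M1BP site GGTCACACT was in 1 window, that of the peak between slp1 and slp2, which holds it at 2 places, as the first sequence printed above shows in lower case. It was in 0.0453% of eligible windows and in 0.852% of promoter summit windows. Sites of BEAF-32 (CGATA, 10.2% against 10.2% of flanks), GAGA factor (GAGAG, 9.79% against 10.6%) and Zelda (CAGGTA, 2.13% against 1.51%) had overlapping intervals at summits and flanks, and so had the homeodomain core TAATTA (8.41% against 6.96%), the GATA sites AGATAA (6.40% against 5.52%) and TGATAA (8.03% against 6.52%), the TALE partner site TGACAG (3.51% against 4.33%) and the E-box CAGCTG (3.14% against 3.83%). The repeat CACACACA was in 1.13% of summit windows (0.518 to 2.13) and 2.26% of flanks.

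Where the word TCAGTG stood 50 to 150 bp from an intergenic summit, it mostly pointed away from the summit. It is called initiator-like here only because it contains the core TCAGT, and whether transcription starts at it was not tested. This word was chosen after its counts in these windows were seen. In the windows of 50 bp to each side it was in 8.66% (6.80 to 10.8) of intergenic peaks, 3.83% of their flanks and 4.001% of eligible windows. The core TCAGT, which each such word contains, was in 19.4% (16.8 to 22.4), 14.1% (12.4 to 15.9) and 15.2%. The core and TCAGTG were in 155 and 69 of the 797 summit windows and in 225 and 61 of the 1594 flanking windows. Of the 353108 eligible windows, 53790 and 14128 held them. By these counts, windows with the core but without TCAGTG were about as common at summits as in flanking and eligible windows. This difference was not tested. The place of TCAGTG relative to the summit depended on strand. The plus-strand word occurred 76 times at 50 to 150 bp after the 797 summits and 16 times at 50 to 150 bp before them. The minus-strand word occurred 92 times before and 13 times after. At 350 to 450 bp from the summit the 4 counts ran from 17 to 19. At least 1 outward word lay 50 to 150 bp from the summit in 145 intergenic peaks, 18.2% (15.6 to 21.1), an inward one in 29, 3.64% (2.45 to 5.18), and an outward word on each side in 19. The share with an outward word was 11.6% in the weakest of the 4 signal groups, then 15.7%, 19.3% and 26.9% in the strongest, while that with an inward word ran from 2.42% to 6.19%. The outward share was 18.4% at 500 to 2000 bp from a TSS and 18.1% farther out. In the windows of 50 bp to each side, TCAGTG was not more frequent in the stronger intergenic peaks. It was in 6.68% (4.41 to 9.64) of those at or above the median signal of all peaks, against 8.66% of all intergenic peaks.

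**Figure D5:**
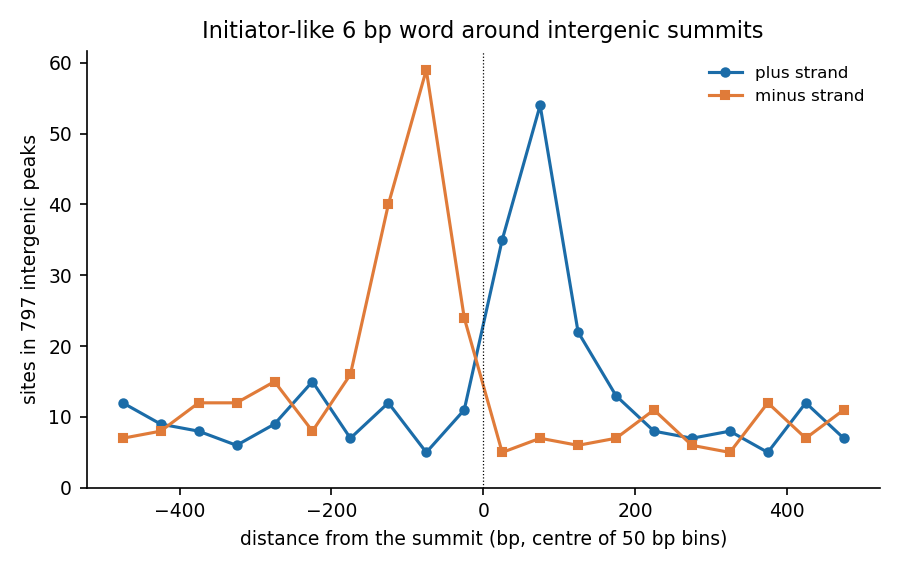
Number of occurrences of the initiator-like 6 bp word in 50 bp bins (vertical axis) by distance from the 797 intergenic summits, on the plus and the minus strand. The minus-strand count peaks at 59 before the summit and the plus-strand count at 54 after it, and both lie between 5 and 16 beyond 150 bp.

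The same layout was found in each replicate's own list and at intronic and promoter peaks. The outward shares were lower in the other classes, for intronic peaks only slightly so on the plus strand. The replicates' own lists are no independent check of the layout, because many of their peaks lie at the same places in the same genome sequence. Of the conservative intergenic peaks, 371 overlapped replicate 1's own list and 561 overlapped replicate 2's. In replicate 1's 391 intergenic peaks the plus-strand word occurred 40 times after and 9 times before the summit, and the minus-strand word 43 times before and 4 times after. In replicate 2's 707 the counts were 93 and 21 for the plus strand and 84 and 16 for the minus strand. At intronic peaks the plus-strand word occurred 147 times after and 40 times before, and the minus-strand word 129 times before and 48 times after. The 4 counts, in that order, were 84, 42, 98 and 56 at promoter peaks. At exonic peaks they were 3, 9, 12 and 3. In the same 100 bp bands, the plus-strand word after the summit was in 9.41% of intergenic, 8.23% of intronic, 4.26% of promoter and 1.17% of exonic peaks. The minus-strand word before it was in 11.2%, 7.15%, 5.01% and 4.69%. Promoter summits can lie on either side of their own start site. No difference between the classes was tested. The word was chosen after its counts at intergenic summits were seen, which can favour the intergenic class in such a comparison.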

How the data were processed

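The authors deposited, per the labels on dm6, ranked and thresholded peak lists for each of the 2 biological replicates and for the series. Chromatin was sonicated to 200 to 800 bp, per the labels. Peak signal is a value the authors computed (aligner, peak caller, normalization and depth not given in the sources used here). The authors' ranked list has a −log10 column, read as the irreproducible discovery rate, of at least 2.0002 at conservative peaks. The lists have no header, so columns were read by the usual layout. Signal served only to describe and rank peaks within the conservative list, and the replicate signals are columns of the ranked list of 150015 peaks.

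Summits were classified with the Ensembl 115 annotation (BDGP6.54, whose sequence is that of dm6), leaving transposable elements out, in the order promoter, intergenic, exonic and intronic. Lists were compared by overlap of at least 1 bp. Windows reaching 50 bp to each side were searched for 19 motifs, spelled in the text where they are named, on both strands. The Grainyhead site AACCGGTT and an A tract AAAAAAA are among them, in 0.125% and 11.3% of summit windows, as are the control palindromes ACTNNAGT (2.63%) and CATNNATG (3.01%). Members of 23 gene lists were matched by symbol, 6 entries through an older name. The tools were numpy 2.4.6 and scipy 1.17.1 for values, pandas 2.3.3 for tables and matplotlib 3.10.9 for plots, under Python 3.11.15. Each 95% interval is exact (Clopper-Pearson) and reflects counting error alone. No p-value was computed, because there is 1 group of 2 replicates. Position classes and gaps were checked against a direct search at 2000 random positions on the annotation used. Motif counting was checked for GGTCACACT alone, planted in 171 random windows of A and T, all of which were counted.

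The genes named are the coding genes beside the 25 strongest intergenic peaks, the 5 fullest gaps and the 3 summits farthest from a TSS, ara, caup and mirr, and the up to 3 members of each list with the strongest intergenic peaks. The peaks, lists, motifs and rules were chosen with earlier results of these data known. Alternatives were the other thresholded list, either replicate's own list, without the other, 250 and 1000 bp from a TSS, coding genes alone, the stronger peaks, peak centres, 201 bp windows, other overlap rules and the nearest coding TSS. Chosen after seeing the data were the word TCAGTG with its core TCAGT, the alternatives that leave out peaks of signal under 20 or keep 1 peak per shared replicate peak, and those for gaps with several peaks.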

Additional observations from a re-analysis of the deposited data

How the results depend on the processing

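The number of intergenic peaks was 797 here, 928 in the other thresholded list, 391 to 707 in the replicates' own lists and 389 among the stronger peaks, and the intergenic share ran from 16.3 to 17.1% in the replicates' own lists and was 14.4% at over 1000 bp from every TSS. Per Mb there were 10.7 to 19.4 in the replicates' own lists and 10.7 among the stronger peaks. Of the 797 peaks, 679 were over 1000 bp from every TSS, and all 797 are also intergenic when coding genes alone count, among 976. The median distance to a TSS was 3344 bp in the other list, 3367 to 3375 bp in the replicates' own lists, 3343 bp in the stronger peaks and 3849 bp at over 1000 bp. The share with a coding nearest TSS was 63.2 to 63.8% in the replicates' own lists, 62.0% in the stronger peaks and 62.0% at over 1000 bp. The median GC share was 33.7% here, 31.7 to 33.7% in the replicates' own lists and 31.7% in the stronger peaks. Of the stronger peaks 78.1% were listed in both replicates. With 1 peak per shared replicate peak, the correlation was 0.81, the median ratio 1.33 and the median signal 97.8. Without peaks of signal under 20 the latter 2 were 1.33 and 97.1, at over 1000 bp from a TSS 1.33 and 93.5, and with coding genes alone the median signal was 94.3. The rank correlation was 0.66. Gaps with several summits numbered 152 here and 70 to 137 in the replicates' own lists. Genes beside a gap with a summit numbered 834 here, 494 to 766 in the replicates' own lists and 508 by nearest coding TSS. The cause of each of these shifts was not tested. Of 92 list counts under the alternatives, 73 stayed within 1.5 times and 19 were lower (by nearest coding TSS also 3 for Notch, 6 for chemoreceptor, 1 for ribosomal protein, 0 for neuron and 2 for Dpr and DIP genes), and of 114 motif shares 42 moved by less than the spread between the replicates' lists. No paired analysis was possible because all samples form 1 group. With 2 replicates of unknown depth, a peak missing from a list cannot be read as unbound.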

Other observations

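Other 6 bp words were also more frequent at intergenic summits than in their flanks, among words found in at least 40 of the 797 summit windows and chosen after their values were seen. The word TCAGTG, with its reverse complement, had 8.66% against 3.83%. It had the highest ratio of the 2 shares, with other words close behind. Next by ratio were TACTAA with 7.65% against 3.45%, CTTTAC with 5.14% against 2.32%, ATACTA with 6.90% against 3.14% and AATCTA with 9.03% against 4.14%. ACACTG (7.90% against 3.64%) and CAGTGC (8.16% against 4.14%) overlap TCAGTG, and most of the others are rich in A and T.

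When 150 bp to each side of the summit were searched, the word TCAGTG was in 28.7% of intergenic peaks (25.6 to 32.0) against 12.8% of windows of that size 500 bp away, in 25.2% of intronic peaks against 12.3%, in 19.1% of promoter peaks against 13.5% and in 14.1% of exonic peaks against 8.79%. Within each GC group of the windows of 50 bp to each side, its share was higher at intergenic summits than in eligible windows. It was 7.09% (4.32 to 10.85) against 2.36% under 30% GC and 10.7% (7.38 to 14.8) against 3.68% at 30 to 40%. At 40 to 50% it was 6.37% against 4.53%, which lies inside the interval at summits (3.10 to 11.4). At 50% and over it was 11.0% (5.14 to 19.8) against 4.84%. The word was chosen after its counts in summit windows of this size were seen. The outward word was in 21.5% of the 339 peaks listed in both replicates and in 15.7% of the others, and in 19.05% of peaks whose nearest TSS was not that of a coding gene against 17.7% of those where it was. None of these differences was tested.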
